A study of Homo sapiens with 36 samples.

Results

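The 41 genes described here encode the heat shock chaperones of the cytosol and of mitochondria, with 2 of the transcription factors that control them. They were found by gene name among the 58735 genes of the count table, all 41 of them, from a list that was drawn up with earlier results of these data known. By role they were 2 heat shock factors, 7 HSP70 and HSP110 proteins, 7 HSP40 proteins, 2 cytosolic HSP90 proteins, 7 cochaperones of HSP90 or HSP70, 3 BAG proteins, 3 small heat shock proteins, 3 mitochondrial chaperones and 7 subunits of the chaperonin TRiC.

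RNA was sequenced from HN4, HN6 and Cal27, established human lines of squamous carcinoma of the head and neck, in 36 libraries, 3 in each of 12 groups. Each line gave an untreated group, a group given 100 ng/ml of the chemokine IL-8 for 24 h, a group transfected with vector plasmid and a group transfected with a plasmid carrying ACLY, the enzyme that makes cytosolic acetyl-CoA from citrate. No gene was deleted or edited in any group, as far as the labels say, and the medium of every group held serum depleted of exosomes. Nothing in the labels says that a group's 3 libraries were grown apart, and every p-value rests on the variation among them, part or all of which may be technical.

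Library totals ran from 16570601 to 20232735 reads assigned to genes, and 3 reads, the limit that a count of 0 leaves, are equal to 0.148 to 0.181 CPM there (counts per 1000000 reads, scaled in all levels given here with TMM factors). This limit covers counting error only. ACLY itself went against a label in HN4: the libraries labelled vector held 25343, 25783 and 29445 ACLY reads and the libraries labelled ACLY held 6324, 6447 and 5645. HN4 directions in the plasmid experiment are therefore given for the labels only. In the other lines the plasmid groups held 39095 to 41958 ACLY reads in HN6 and 32531 to 38069 in Cal27, against 4661 to 4769 and 4106 to 4658 with vector. With IL-8 the ACLY reads were 21695 to 24409 in HN4 (6340 to 7334 untreated), 17572 to 23068 in Cal27 (4371 to 4609 untreated) and 3885 to 4220 in HN6 (4678 to 5030 untreated). The Cal27 libraries with IL-8 or ACLY also read genes of HN4. For this, 27 genes were taken with at least 10 CPM in untreated HN4 and under 0.3 CPM in the other untreated lines. Their median ratio to the HN4 level, averaged over a group's libraries, was 0.276 in Cal27 with IL-8 and 0.506 with ACLY. It was 0 in Cal27 with vector, and 0 in untreated Cal27, where the choice of genes sets it low. Over 34 genes restricted in the same way to Cal27, the Cal27 groups with IL-8 and ACLY had median ratios of 0.647 and 0.415 to the untreated level. The third Cal27 library with IL-8 and the third HN4 library labelled ACLY stood apart by their low share of mitochondrial reads, 1.06% and 2.15%, where the other libraries held at least 3.16%. All 8 squamous epithelial markers reached 1 CPM in at least 1 library, and so did 2 of 7 fibroblast, 3 of 6 leukocyte and 3 of 4 endothelial markers; PTPRC, CD68, PDGFRA, COL1A2 and KDR did in none.

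Heat shock proteins hold unfolded or partly folded proteins and help them reach their native state. HSP70 binds short hydrophobic stretches and is driven by HSP40 partners, which start its cycle, and by HSP110 and BAG proteins, which release its nucleotide. HSP90 takes clients such as kinases and steroid receptors from HSP70 with the help of cochaperones, small heat shock proteins hold unfolding proteins until HSP70 arrives, and TRiC folds actin and tubulin in a closed chamber. Transcription of many of these genes is controlled by heat shock factor HSF1, which is held inactive by chaperones and binds heat shock elements, inverted repeats of the unit nGAAn, once free. Tumour cells often carry high chaperone levels.

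The windows around several start sites hold the letters of such elements, and they are shown because the members with and without them are set side by side in the results. In RefSeq windows from 250 bases before to 50 bases after each start (GRCh38.p14), 37 of the 41 genes had an entry; HSF1, ST13, FKBP4 and CRYAB had none. Both strands were searched for 3 alternating units with no mismatch, GAANNTTCNNGAA or its reverse complement TTCNNGAANNTTC, and 7 of the 37 genes (18.9%) held a match in at least 1 window, against 0.608% of the 27305 genes with a window. These were HSPA8, HSP90AA1, HSP90AB1, HSPD1, CHORDC1, DNAJB6 and DNAJA1; those of DNAJB6, which passed the test in no treatment comparison, and DNAJA1, whose match lies after the start, are not printed. A match of 2 units, GAANNTTC or TTCNNGAA, was found in 21 of the 37 genes (56.8%) and in 16.2% of all genes; every match of 3 units contains matches of 2. The stretches run 5′ to 3′ on the strand of the gene, with the matching bases in capitals. A match describes the letters only.
HSPA8, chr11:123062334-123062386, minus strand, bases -230 to -218 from the start: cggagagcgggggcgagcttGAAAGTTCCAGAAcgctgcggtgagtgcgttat
HSPA8, chr11:123062159-123062211, minus strand, bases -55 to -43: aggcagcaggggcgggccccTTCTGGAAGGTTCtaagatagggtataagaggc
HSP90AA1, chr14:102087100-102087152, minus strand, bases -88 to -76: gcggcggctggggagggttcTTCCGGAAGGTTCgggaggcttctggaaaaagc
HSP90AB1, chr6:44247758-44247863, plus strand, 2 matches between bases -165 and -100: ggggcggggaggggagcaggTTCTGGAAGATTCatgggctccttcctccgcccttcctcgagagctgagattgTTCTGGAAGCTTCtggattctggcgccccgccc
CHORDC1, chr11:90223067-90223129, minus strand, 3 overlapping matches between bases -60 and -38: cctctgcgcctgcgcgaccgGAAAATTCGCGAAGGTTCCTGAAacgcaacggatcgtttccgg
HSPD1, chr2:197500048-197500090, minus strand, 2 overlapping matches between bases -245 and -228 of the inner of its 2 starts: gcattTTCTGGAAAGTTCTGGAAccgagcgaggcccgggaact
HSPA1A, chr6:31815417-31815464, plus strand, 2 units at bases -106 to -99: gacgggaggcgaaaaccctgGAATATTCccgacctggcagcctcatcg
HSPA1B, chr6:31827613-31827660, plus strand, 2 units at bases -105 to -98: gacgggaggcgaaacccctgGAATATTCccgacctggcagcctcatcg
HSPA1A (chr6:31815464-31817946) and HSPA1B (chr6:31827735-31830255) are the stress-inducible HSP70 pair, whose windows are 92.6% identical and whose transcripts are 93.1% identical in GENCODE 29. Reads of one can be counted on the other, so HSPA1A and HSPA1B were also summed. HSPD1 (chr2:197486581-197516737) and HSPE1 (chr2:197499994-197503457) lie head to head with starts 105 bases apart in RefSeq, and 204 bases of their windows are the same DNA on opposite strands.

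The 41 genes together took 1.19% to 2.07% of a library's reads. In HN4 the share was 1.30% ± 0.0302 (SD, n = 3) untreated, 1.65% ± 0.0314 with IL-8, 1.72% ± 0.00954 in the libraries labelled vector and 1.23% ± 0.0637 in those labelled ACLY. In HN6 it was 2.02% ± 0.039 untreated, 1.71% ± 0.0224 with IL-8, 1.99% ± 0.0603 with vector and 1.24% ± 0.00208 with ACLY. In Cal27 it was 1.63% ± 0.0392, 1.97% ± 0.0775, 1.55% ± 0.0201 and 1.99% ± 0.0169 in the same order. The HN4 and Cal27 groups with more ACLY reads held the larger share, and the HN6 group with the ACLY plasmid held the smaller one; each of these groups lay outside the libraries of its control. In bulk RNA, fewer cells that express a gene and less RNA per cell cannot be told apart.

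**Figure D1:**
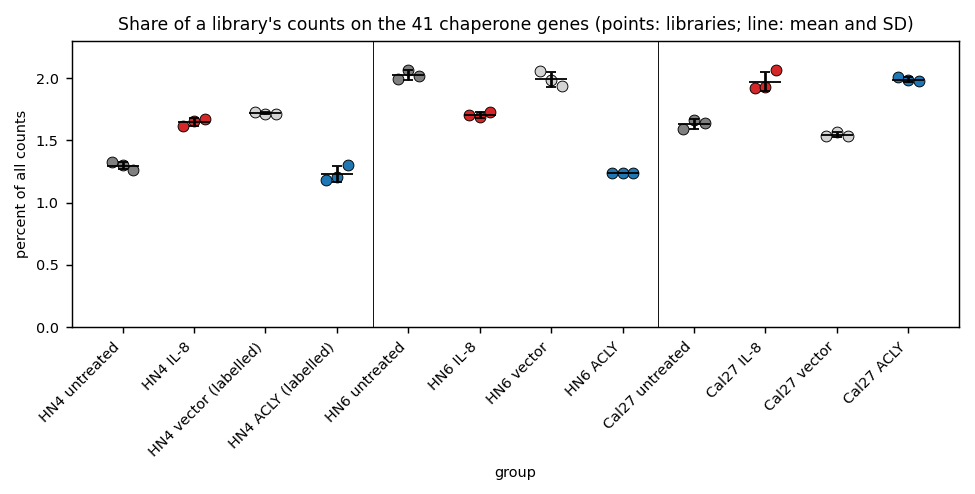
Share of each library's reads on the 41 chaperone genes, in percent (vertical axis), for the 12 groups (horizontal axis). Points are libraries and lines the mean and SD of 3; HN6 with the ACLY plasmid sits at 1.24% below its vector group at 1.99%, and Cal27 with the plasmid at 1.99% above its vector group at 1.55%.

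Per kilobase of gene model, HSP90AB1, the constitutive HSP90, was the highest member in each untreated line, at 753 ± 29.5 CPM per kb in HN4, 1160 ± 29.9 in HN6 and 851 ± 16.7 in Cal27. In HN4 it was followed by HSPA8 (295 ± 10.1 CPM per kb), HSPB1 (278 ± 16.7) and HSP90AA1 (271 ± 12.7), whose libraries overlapped, and then by HSPD1 (196 ± 8.56). In HN6 the order was HSP90AA1 (754 ± 46.1 CPM per kb) and HSPA8 (599 ± 19.5), which did not overlap, followed by HSPD1 (247 ± 8.42) and HSPB1 (224 ± 22.3), which did. Cal27 showed the order of HN6, with HSP90AA1 at 340 ± 22.2 and HSPA8 at 256 ± 12.2 CPM per kb, and HSPD1 and HSPB1 overlapping at 217 ± 9.16 and 215 ± 40.6. At the other end, CRYAB, the small heat shock protein of lens and muscle, had 130 reads in all 36 libraries together.

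Most genes differed between the untreated lines, and the counts of members are to be read against that background. Against untreated HN4, 24 of 41 members were higher in HN6 and 4 lower (background over all 18398 genes tested 32.4% higher and 34.7% lower; median log2 difference 0.49 for the members and -0.03 for all genes). Cal27 had 26 members higher than HN4 and 6 lower (background 32.2% and 31.4%; medians 0.29 and 0.00), and 12 higher and 21 lower than HN6 (background 35.3% and 33.1%; medians -0.19 and 0.03). The last split rested on the scaling: by library size or upper quartile it was 15 higher and 15 lower, and both scalings moved the median of all genes to 0.15. Calls are an adjusted p under 0.05 in edgeR's quasi-likelihood test, Benjamini-Hochberg adjusted over all genes tested.

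HSPA2, an HSP70 known for its role in the male germ line, had the largest called difference between HN4 and each of the other lines. It read 1.78, 1.85 and 1.39 CPM in untreated HN4, 53.4, 48.1 and 51.3 in HN6 and 49.4, 41.9 and 45.1 in Cal27. The log2 difference from HN4 was 4.92 ± 0.128 (SE) in HN6 (adjusted p = 1.56e-15) and 4.75 ± 0.128 in Cal27 (adjusted p = 1.87e-15). The inducible HSP70 genes followed the same order of HN4 below Cal27 below HN6, without overlap. HSPA1A was 3.40 ± 0.184 higher in HN6 and 2.59 ± 0.179 higher in Cal27 than in HN4 on the log2 scale (adjusted p = 1.85e-11 and 5.96e-10), and HSPA1B 2.38 ± 0.101 and 1.75 ± 0.0997 (adjusted p = 6.94e-13 and 3.98e-11). HSPA1A and HSPA1B summed were 42.7 ± 1.35 CPM in untreated HN4, 205 ± 22.5 in Cal27 and 347 ± 30.8 in HN6.

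The largest falls against HN4 were in other roles. In HN6 they were BAG1, a nucleotide exchange factor of HSP70 (log2 -1.19 ± 0.195, adjusted p = 3.25e-05), the HSP40 gene DNAJA4 (-0.92 ± 0.0676, adjusted p = 1.29e-09) and the small heat shock gene HSPB8 (-0.89 ± 0.0929, adjusted p = 1.36e-07). In Cal27 they were HSF1 (-1.72 ± 0.186, adjusted p = 2.35e-07), the neuronal HSP40 gene DNAJB2 (-1.30 ± 0.228, adjusted p = 7.09e-05) and HSPB8 (-0.86 ± 0.0925, adjusted p = 2.13e-07). Cal27 was furthest below HN6 in AHSA1, the activator of the HSP90 ATPase (-1.45 ± 0.0618, adjusted p = 7.14e-13), DNAJB2 (-1.40 ± 0.228, adjusted p = 2.99e-05) and HSF1 (-1.36 ± 0.185, adjusted p = 3.67e-06). BAG1 (1.47 ± 0.195, adjusted p = 2.78e-06) and DNAJA4 (1.23 ± 0.0676, adjusted p = 2.21e-11) were higher in Cal27 than in HN6.

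**Figure D2:**
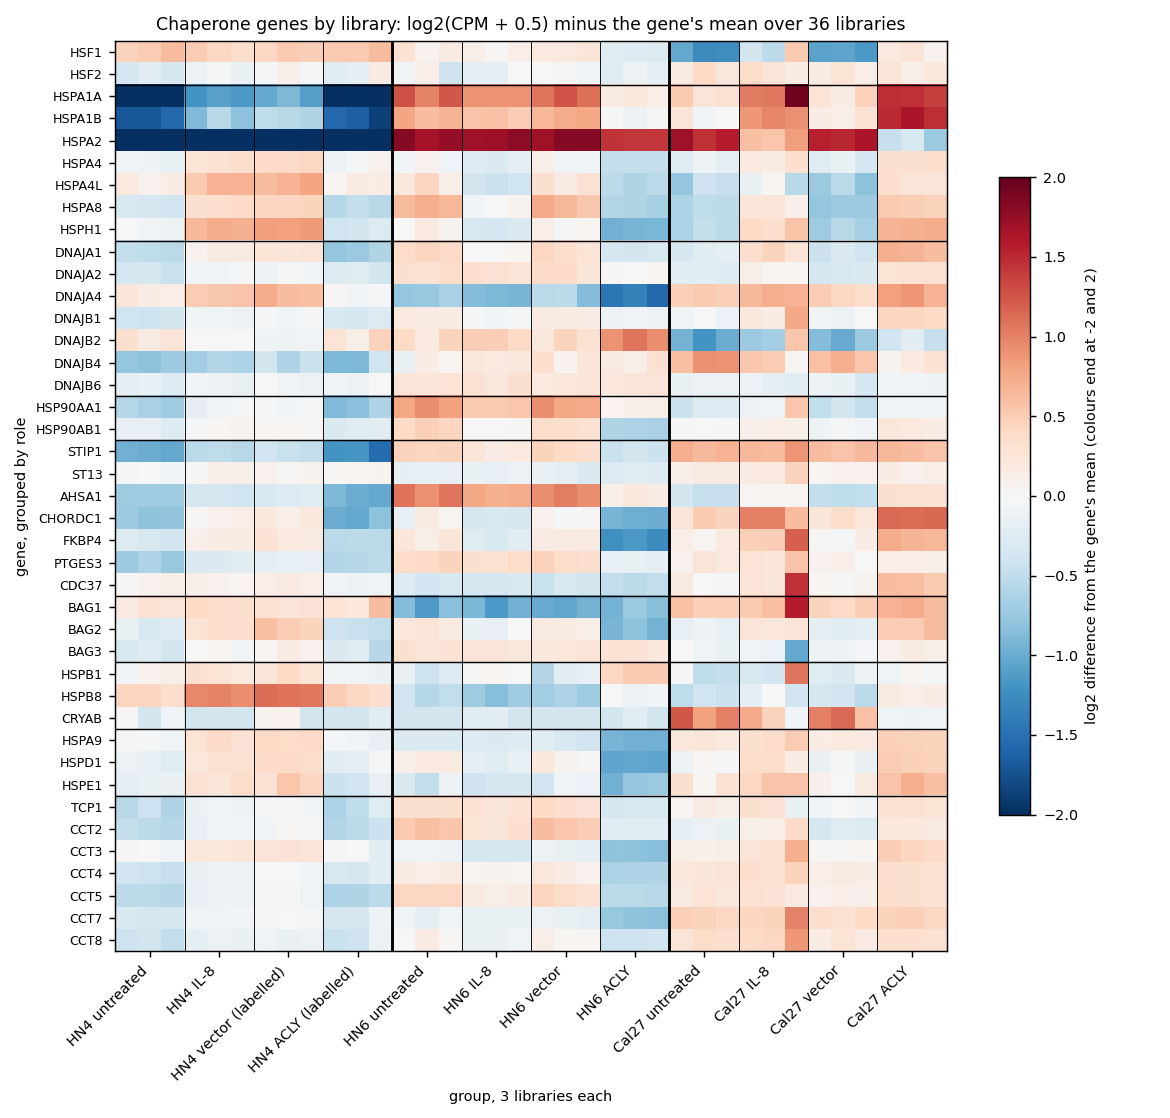
Level of the 41 genes (rows, grouped by role) in each of the 36 libraries (columns, 3 per group), as log2(CPM + 0.5) minus the mean of the gene over all libraries; colours end at -2 and 2. HSPA1A, HSPA1B and HSPA2 are low in every HN4 library, most rows turn lower in HN6 with ACLY, and the third Cal27 library with IL-8 differs from the others of its group in rows such as BAG1, CDC37 and HSPB1.

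IL-8 was followed by higher chaperone RNA in HN4 and Cal27 and by lower chaperone RNA in HN6. In HN4, 26 of 41 members rose and 0 fell (background 6.89% higher and 7.09% lower; median log2 difference 0.37 against -0.01 over all genes), and for 37 members the 3 treated and 3 untreated libraries did not overlap, as held for 44.7% of all genes tested. The largest rises were those of HSPA1A, HSPA1B and CHORDC1. Without the third Cal27 library with IL-8, which shares in the estimate of the spread, 32 members rose and 1 fell in HN4. In HN6, 0 members rose and 15 fell (background 7.61% and 7.81%; medians -0.17 and 0.00), led by HSPA8, HSPA4L and FKBP4. Leaving out any 1 of the 6 HN6 libraries gave 9 to 12 members, all lower. With the same Cal27 library left out of the fit, 22 members were lower in HN6.

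In Cal27, 24 members rose with IL-8 and 2 fell (background 22.7% and 16.7%; medians 0.33 and 0.00). HSF1, HSPA1A and HSPH1 had the largest rises, and HSPA2 and DNAJB4 fell. Without the third library with IL-8 the rise was 0.92 for HSPH1, 0.86 for HSPA1B and 0.80 for HSPA8, above those of HSF1 (0.74) and HSPA1A (0.69). The third Cal27 library with IL-8 lay far from the other two: without it, 26 members rose and 2 fell, while a fit of the 6 Cal27 libraries alone, with it, called 10. Among the calls lost in that fit were those of CCT2, DNAJB1, DNAJB4, HSP90AA1, HSPD1 and HSPE1, at adjusted p = 0.0723 to 0.141. Of the 41 members, 12 were higher in HN4, lower in HN6 and higher in Cal27, and 9 passed the test in no line. The shares of all genes with these patterns were not counted. The IL-8 response differed among the 3 lines in 32 of 41 members (background 40.2%; both interaction terms together).

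In the plasmid experiment 40 members were tested, CRYAB having too few reads. HN4 libraries labelled ACLY had 1 member higher and 33 lower than those labelled vector (background 18.9% higher and 19.1% lower; median log2 difference -0.47 against 0.01 over all genes), led by HSPA1A, HSPH1 and HSPA1B. In HN6 the ACLY plasmid was followed by 3 members higher and 31 lower (background 26.8% and 24.9%; medians -0.66 and 0.04). FKBP4, HSPA8 and HSPD1 fell most, and HSPB1, DNAJB2 and HSPB8 were the 3 that rose. In Cal27 it was followed by 32 higher and 2 lower (background 34.2% and 29.0%; medians 0.45 and 0.03), with HSPH1, HSPA1B and HSF1 rising most and HSPA2 and DNAJB4 falling. By upper-quartile scaling 26 members were higher there and 2 lower, and the median of all genes was -0.11. Of the 40, 26 were lower in the HN4 libraries labelled ACLY, lower in HN6 and higher in Cal27. The share of all genes with this pattern was not counted. The plasmid response differed among the lines in 35 of 40 members (background 70.9%) with HN4 as labelled. With the HN4 contrast turned it differed in 36 of 40 (background 73.1%), 34 of them the same genes.

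**Figure D3:**
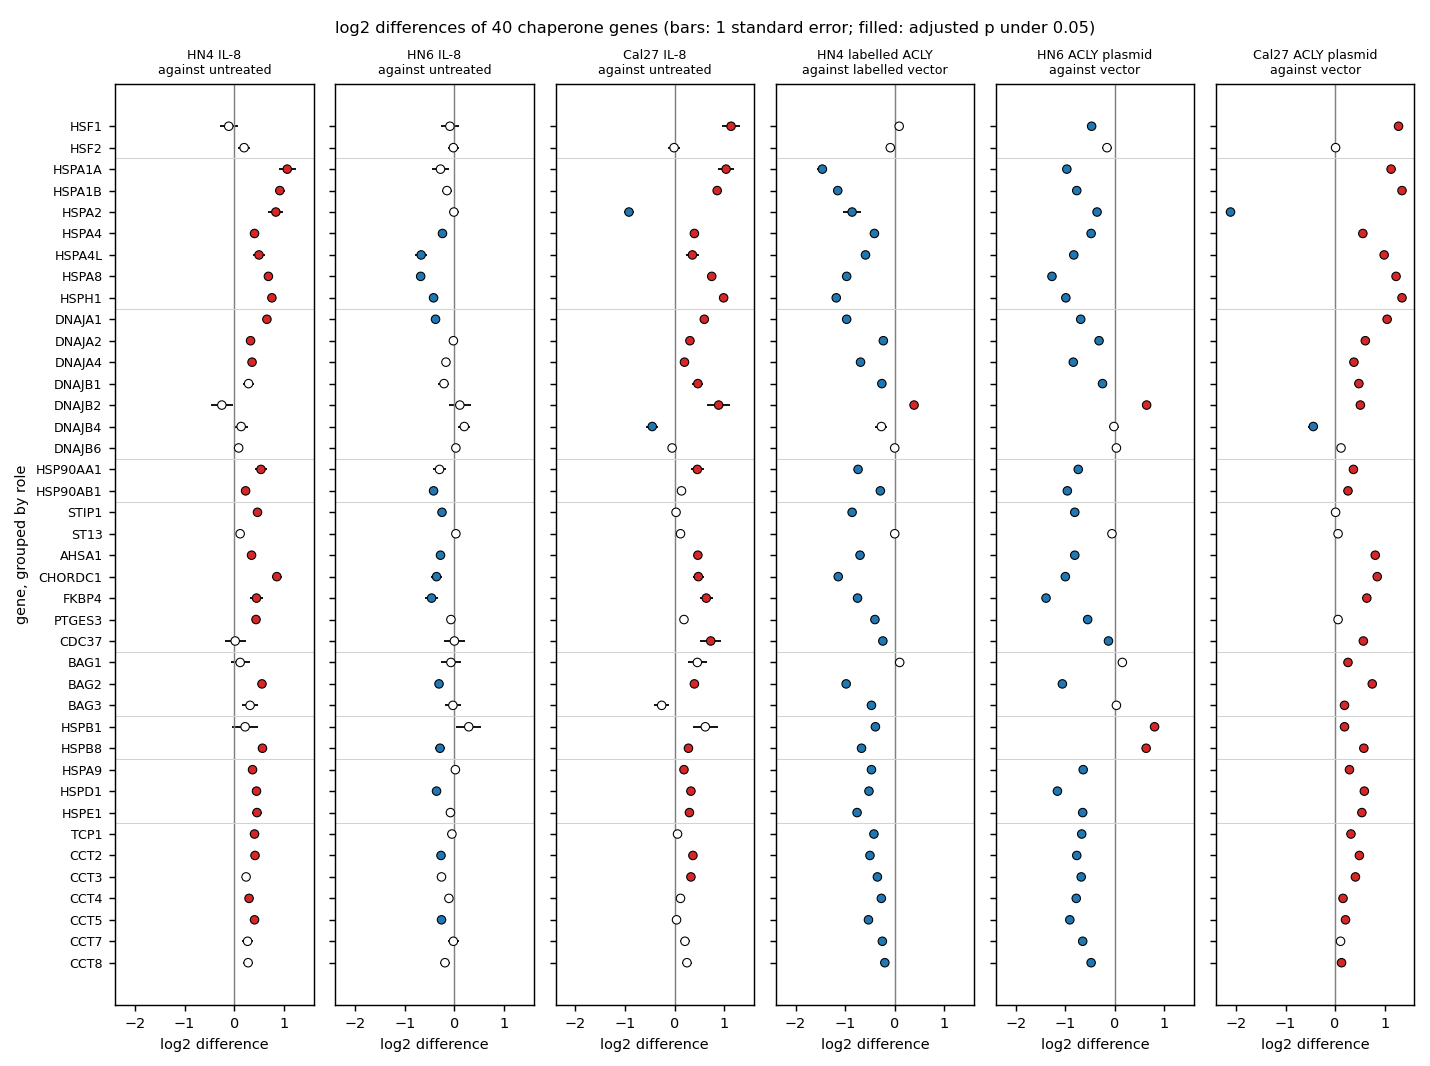
log2 differences (horizontal axis) of 40 members (rows, grouped by role; CRYAB is left out for its few reads) in the 6 treatment comparisons. Bars are 1 standard error and filled points have an adjusted p under 0.05 (red higher, blue lower); the points of HN4 with IL-8 lie mostly right of 0, those of HN6 with ACLY mostly left, and HSPB1, HSPB8 and DNAJB2 lie right of 0 in HN6 with ACLY.

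The factor genes passed the test in neither HN4 comparison; in other fits HSF1 did, with IL-8 on the 6 HN4 libraries alone (adjusted p = 0.043) and in the plasmid experiment by upper-quartile scaling (0.0242). HSF1, the master factor of the heat shock response, read 124, 128 and 141 CPM in untreated HN4 and 129, 121 and 115 with IL-8 (log2 -0.11 ± 0.179, adjusted p = 0.762), while 26 members rose. In HN6 it was 102 ± 8.38 CPM untreated and 96.2 ± 3.9 with IL-8 (adjusted p = 0.799). In the plasmid experiment it was 126 ± 4.99 and 134 ± 6.59 CPM in the HN4 libraries labelled vector and ACLY (adjusted p = 0.226), and it fell in HN6 from 105 ± 2.33 to 75.5 ± 1.28 (log2 -0.47 ± 0.0567, adjusted p = 1e-08). The Cal27 values stand beside these. There HSF1 was 44.3, 37.2 and 37.8 CPM untreated and 70.0, 62.8 and 130 with IL-8, a rise of 1.14 ± 0.185 on the log2 scale (adjusted p = 0.000133) that was 0.74 without the third library. After the plasmid it rose in Cal27 from 42.2 ± 1.39 to 102 ± 6.26 CPM (1.28 ± 0.0588, adjusted p = 1.65e-19). Both treated Cal27 means, 87.6 and 102 CPM, lay between the Cal27 controls and the HN4 groups, whose means were 122 to 134 CPM. HSF2, a second factor known from development, passed the test in none of the 6 treatment comparisons.

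All 7 HSP70 and HSP110 genes rose in HN4 with IL-8, and all 7 were lower in the HN4 libraries labelled ACLY and in HN6 with the plasmid. Over all genes tested these shares were 6.89%, 19.1% and 24.9%. HSPA8, the constitutive cytosolic HSP70, read 1474, 1435 and 1377 CPM in untreated HN4 and 2260, 2290 and 2371 with IL-8. It went from 2817, 3004 and 2887 to 1744, 1800 and 1903 in HN6 and from 1174, 1283 and 1268 to 2155, 2167 and 1953 in Cal27. Treated and untreated libraries did not overlap in any line. Among the untreated lines HSPA8 was highest in HN6, and it moved the other way there. The log2 differences were 0.69 ± 0.0654 in HN4 (adjusted p = 3.62e-06), -0.68 ± 0.0654 in HN6 (adjusted p = 2.73e-06) and 0.75 ± 0.0655 in Cal27 (adjusted p = 1.03e-07). In the plasmid experiment HSPA8 was 2456 ± 13 CPM in the HN4 libraries labelled vector and 1256 ± 42.9 in those labelled ACLY (log2 -0.97 ± 0.0474, adjusted p = 1.34e-17). It fell in HN6 from 2869 ± 219.7 to 1186 ± 32.7 CPM (-1.27 ± 0.0477, adjusted p = 1.77e-21) and rose in Cal27 from 1085 ± 18.3 to 2553 ± 63.3 (1.23 ± 0.0477, adjusted p = 1.2e-21). The HN4 libraries labelled vector thus stood beside HN4 with IL-8 (2307 ± 57.2 CPM), and those labelled ACLY beside untreated HN4 (1429 ± 48.9); these groups were scaled and fitted in separate experiments and were not tested against each other.

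HSPH1, the HSP110 that releases nucleotide from HSP70, showed the same directions. In untreated HN4 it read 299.5, 291 and 281 CPM and with IL-8 476, 506 and 495 (log2 0.76 ± 0.0726, adjusted p = 3.64e-06). In HN6 it fell from 323 ± 21.7 to 242 ± 4.16 CPM (-0.42 ± 0.0724, adjusted p = 0.000814), and in Cal27 it rose from 208 ± 11.4 to 411 ± 35.2 (0.99 ± 0.073, adjusted p = 1.19e-08). After the plasmid it fell in HN6 from 314 ± 16.4 to 158 ± 3.04 CPM (-0.99 ± 0.0503, adjusted p = 5.83e-18) and rose in Cal27 from 194 ± 10.6 to 495 ± 9.48 (1.35 ± 0.0501, adjusted p = 3.86e-22). The HN4 libraries labelled ACLY had 238 ± 12 CPM and those labelled vector 540 ± 6.63 (-1.18 ± 0.0498, adjusted p = 1.99e-19). The HSP110 relative HSPA4L, named for its fall in HN6 with IL-8, went there from 57.2 ± 6.24 to 36.1 ± 0.774 CPM (-0.67 ± 0.127, adjusted p = 0.00168).

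HSPA1A, the stress-inducible HSP70, was 23.2, 22.9 and 23.6 CPM in untreated HN4 and 46.9, 50.5 and 48.4 with IL-8, a rise of 1.07 ± 0.176 on the log2 scale (adjusted p = 0.000682). In HN6 it read 264, 217 and 257 CPM untreated and 202 in each library with IL-8 (-0.28 ± 0.164, adjusted p = 0.273); this passed without the third Cal27 library in the fit (adjusted p = 0.000413) and on the 6 HN6 libraries alone (0.00126). In Cal27 it read 156, 129 and 134 CPM untreated and 224, 226 and 412 with IL-8 (1.04 ± 0.166, adjusted p = 0.000113; 0.69 without the third library). The groups did not overlap in any line, and the third Cal27 library was well above the other two. With the plasmid HSPA1A fell in HN6 from 239.9 ± 16.3 to 122 ± 3.46 CPM (-0.97 ± 0.0816, adjusted p = 8.47e-10) and rose in Cal27 from 134 ± 15 to 294 ± 11.8 (1.13 ± 0.0811, adjusted p = 3.61e-11). It was 53.7 ± 3.79 CPM in the HN4 libraries labelled vector and 19.4 ± 3.28 in those labelled ACLY (-1.46 ± 0.0986, adjusted p = 8.74e-11).

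HSPA1B, its near copy, moved by 0.92 ± 0.0997 in HN4 with IL-8 (adjusted p = 1.23e-05), -0.15 ± 0.0935 in HN6 (adjusted p = 0.328) and 0.86 ± 0.0943 in Cal27 (adjusted p = 1.95e-06), where its 3 treated libraries read 114, 123 and 118 CPM against 74.3, 59.9 and 61.7 untreated. The third Cal27 library was thus high for HSPA1A and not for HSPA1B. With the plasmid HSPA1B moved by -0.77 ± 0.066 in HN6 (adjusted p = 5e-12) and 1.35 ± 0.0646 in Cal27 (adjusted p = 5.71e-19), and by -1.15 ± 0.0767 in the HN4 libraries labelled ACLY (adjusted p = 4.54e-14). The sum of the pair was 42.7 ± 1.35 CPM in untreated HN4 and 85.5 ± 6.34 with IL-8, 95.8 ± 4.46 and 38.4 ± 2.39 in the HN4 libraries labelled vector and ACLY, and 205 ± 19.5 and 474 ± 19 in Cal27 with vector and ACLY. Of the exon bases of HSPA1B, 36.5% overlap another annotated gene.

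HSPA2 was the exception among the HSP70 genes in Cal27. It rose in HN4 with IL-8 from 1.67 ± 0.25 to 3.00 ± 0.271 CPM, did not pass the test in HN6, and fell in Cal27 from 45.4 ± 3.76 to 24.0 ± 2.69 (log2 -0.92 ± 0.0969, adjusted p = 1.11e-06). With the plasmid it fell in Cal27 from 45 ± 2.01 to 10.4 ± 1.58 CPM (-2.11 ± 0.0942, adjusted p = 6.84e-20). The treated Cal27 groups lay between the Cal27 controls and the HN4 groups, whose means were 1.62 to 3.00 CPM.

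**Figure D4:**
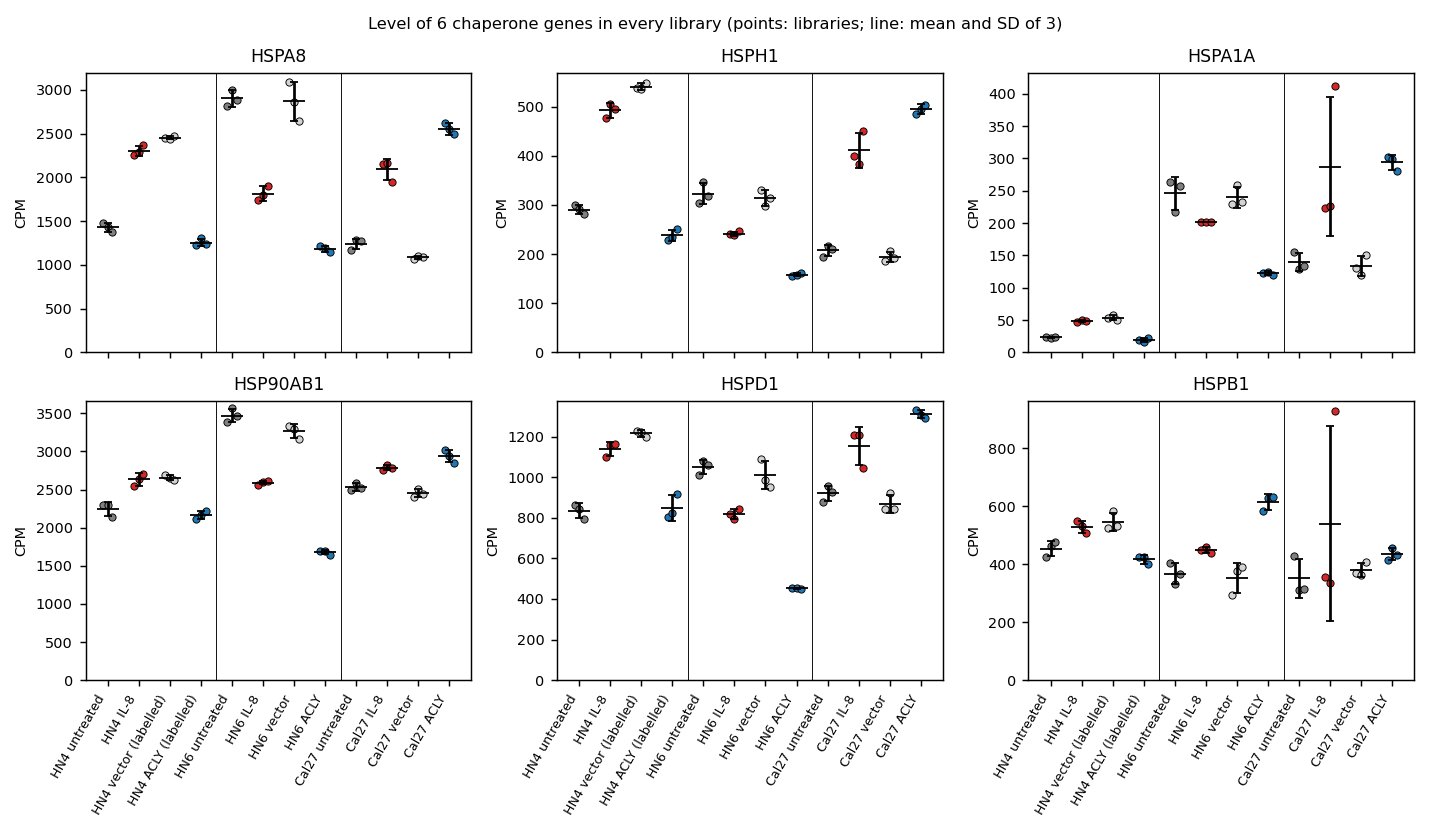
Level in CPM (vertical axes, from 0) of HSPA8, HSPH1, HSPA1A, HSP90AB1, HSPD1 and HSPB1 in the 12 groups (horizontal axis). Points are libraries and lines the mean and SD of 3; HSPA8 moves up with IL-8 in HN4 and Cal27 and down in HN6, and the third Cal27 library with IL-8 stands apart at 412 CPM for HSPA1A and 926 CPM for HSPB1.

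Among the 7 HSP40 genes, 3 rose in HN4 with IL-8, 1 fell in HN6, and 5 rose and 1 fell in Cal27. Over all genes tested these shares were 6.89%, 7.81%, 22.7% and 16.7%, and a count of 1 in 7 cannot be told apart from them. DNAJB1, the inducible HSP40 that works with HSPA1A, read 126, 124 and 128 CPM in untreated HN4 and 155, 155 and 152 with IL-8. These groups did not overlap, but the log2 difference of 0.29 ± 0.112 did not pass the test (adjusted p = 0.0936). It passed at adjusted p = 1.74e-06 with the third Cal27 library with IL-8 left out of the fit. In HN6 DNAJB1 was 186 ± 2.88 CPM untreated and 161 ± 2.09 with IL-8 (-0.21 ± 0.111, adjusted p = 0.232, and 0.000178 without that Cal27 library), and in Cal27 it rose from 158 ± 5.52 to 219 ± 55 (0.47 ± 0.111, adjusted p = 0.003; 0.25 without the third library). DNAJB1 fell in HN6 with the plasmid from 184 ± 2.17 to 155 ± 2.97 CPM (-0.25 ± 0.0463, adjusted p = 2.12e-05) and rose in Cal27 from 158 ± 5.37 to 221 ± 4.12 (0.48 ± 0.046, adjusted p = 3.6e-11). It was 159.7 ± 0.775 and 133 ± 3.57 CPM in the HN4 libraries labelled vector and ACLY (-0.26 ± 0.0467, adjusted p = 3.27e-05).

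DNAJB2, an HSP40 that delivers clients for ubiquitin-dependent degradation, went against most members in the HN4 libraries labelled ACLY and in HN6 with the plasmid. It was the only member higher in the HN4 libraries labelled ACLY, at 88.4 ± 10.5 CPM against 67.6 ± 1.02 (log2 0.39 ± 0.0792, adjusted p = 0.000242), and it rose in HN6 with the plasmid from 90.5 ± 7.01 to 141 ± 9.02 (0.64 ± 0.0769, adjusted p = 3.44e-08). In Cal27 it rose from 39.4 ± 3.83 to 56.3 ± 4.68 (0.51 ± 0.083, adjusted p = 3.8e-06), and no other member was called higher in all 3 comparisons as labelled. Read from labelled vector to labelled ACLY, the HN4 direction goes with fewer ACLY reads, and with all 36 libraries in 1 fit the HN4 call was lost (0.38, adjusted p = 0.115). DNAJB4, a relative of DNAJB1, fell in Cal27 with IL-8 from 36.3 ± 4.31 to 26.6 ± 5.05 CPM (-0.45 ± 0.121, adjusted p = 0.00744) and with the plasmid from 31.7 ± 2.08 to 23.4 ± 1.8 (-0.44 ± 0.104, adjusted p = 0.000427). HN4 groups read DNAJB4 at means of 11.8 to 14.7 CPM. Beside HSF2, the members that passed the test in none of the 6 treatment comparisons, named after their values were seen, were DNAJB6, an HSP40 that holds back aggregation, and ST13, which stabilises the substrate-bound form of HSP70.

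Both HSP90 genes were called lower in HN6 with the plasmid and in the HN4 libraries labelled ACLY, and higher in Cal27 with the plasmid and in HN4 with IL-8. HSP90AA1, the inducible form, read 1489, 1416 and 1356 CPM in untreated HN4 and 1941, 2097 and 2150 with IL-8 (log2 0.54 ± 0.124, adjusted p = 0.00747). In HN6 it read 3778, 4232 and 3859 CPM untreated and 3191, 3184 and 3258 with IL-8; these did not overlap, but -0.30 ± 0.123 did not pass the test (adjusted p = 0.111). It passed without the third Cal27 library in the fit (adjusted p = 8.15e-06), on the 6 HN6 libraries alone (9.34e-06), with all 36 libraries (0.018) and with no filter (0.00469). In Cal27 it read 1650, 1858 and 1845 CPM untreated and 2040, 2115 and 3212 with IL-8 (0.46 ± 0.124, adjusted p = 0.00712; 0.22 without the third library). In the plasmid experiment it fell in HN6 from 3909 ± 276 to 2342 ± 64.6 CPM (-0.74 ± 0.0544, adjusted p = 1.27e-13) and rose in Cal27 from 1621 ± 80.3 to 2095 ± 17.4 (0.37 ± 0.0542, adjusted p = 3.71e-07; 0.22 by upper-quartile scaling). The HN4 libraries labelled ACLY had 1290 ± 127 CPM and those labelled vector 2152 ± 17.9 (-0.74 ± 0.0545, adjusted p = 7.86e-13).

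HSP90AB1, the constitutive form, rose in HN4 with IL-8 from 2246 ± 87.8 to 2633 ± 81.2 CPM (log2 0.23 ± 0.0565, adjusted p = 0.0115); this call was lost without the third untreated or the third treated HN4 library, at adjusted p = 0.0711 and 0.0607, and by library-size and upper-quartile scaling, at 0.0545 and 0.0589. It fell in HN6 with IL-8 from 3472 ± 89.1 to 2592 ± 24.1 CPM (-0.42 ± 0.0566, adjusted p = 8.15e-05), and in Cal27 it was 2537 ± 49.9 and 2788 ± 34.6 (0.14 ± 0.0565, adjusted p = 0.0653, and adjusted p = 0.00502 without the third library). With the plasmid it fell in HN6 from 3268 ± 90.1 to 1679 ± 26.8 CPM (-0.96 ± 0.0417, adjusted p = 9.25e-20) and rose in Cal27 from 2452 ± 55.1 to 2937 ± 79.7 (0.26 ± 0.0413, adjusted p = 1.45e-06; 0.11 by upper-quartile scaling). It was 2655 ± 34.8 and 2168 ± 51.5 CPM in the HN4 libraries labelled vector and ACLY (-0.29 ± 0.0414, adjusted p = 6.95e-07). The log2 ratio of HSP90AA1 to HSP90AB1 reads had a mean below 0 in each HN4 and Cal27 group and above 0 in each HN6 group. In Cal27 it was -0.51 ± 0.08 untreated and -0.21 ± 0.36 with IL-8, where the third library was above 0, with 3212 CPM of HSP90AA1 and 2787 of HSP90AB1. It was -0.66 ± 0.03 in untreated HN4, -0.35 ± 0.03 with IL-8, 0.19 ± 0.05 in untreated HN6 and 0.48 ± 0.06 in HN6 with ACLY.

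Of the 7 HSP90 and HSP70 cochaperones, 5 rose in HN4 with IL-8 (6.89% of all genes tested), 4 fell in HN6 (7.81%) and 4 rose in Cal27 (22.7%). CHORDC1, an HSP90 partner and the member with 3 overlapping matches of the motif, rose in HN4 from 64.7 ± 1.98 to 117 ± 4.51 CPM (log2 0.86 ± 0.106, adjusted p = 4.45e-05). FKBP4, the immunophilin of steroid receptor complexes, fell in HN6 with IL-8 from 220.1 ± 11.2 to 160.4 ± 5.44 CPM (-0.46 ± 0.132, adjusted p = 0.0253). That call was lost at adjusted p = 0.06 to 0.0927 when the first or the third untreated HN6 library or any 1 of the treated ones was left out. With the plasmid FKBP4 fell in HN6 from 214, 217 and 217 CPM with vector to 81.5, 85.9 and 78.9 with ACLY, the largest fall of that comparison (-1.39 ± 0.0522, adjusted p = 1.77e-21). In the same comparison 6 of the 7 cochaperones fell (24.9% of all genes tested), and in Cal27 4 rose (34.2%) and 0 fell (29.0%). Exon bases shared with other annotated genes were 11.4% for FKBP4.

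Of the 3 BAG proteins, BAG2, which blocks the ubiquitin ligase CHIP, was lower in both HN6 comparisons and in the HN4 libraries labelled ACLY and higher in the other 3 treatment comparisons; 44.2% of its exon bases overlap other genes. BAG3, the inducible partner of HSP70 in selective autophagy, passed the test in none of the lines with IL-8. It was 97.3 ± 3.42 CPM in untreated HN4 and 122 ± 4.47 with IL-8 (log2 0.32 ± 0.156, adjusted p = 0.194), 147 ± 3.89 and 144 ± 1.68 in HN6 (adjusted p = 0.924), and 121, 114 and 109 against 115, 112 and 59.2 in Cal27 (-0.26 ± 0.156, adjusted p = 0.189). Without the third of these, the low one, the Cal27 difference was -0.01, and with it out of the fit the HN4 difference passed the test at adjusted p = 2.21e-06. With the plasmid BAG3 was 130.3 ± 5.42 and 94.3 ± 11 CPM in the HN4 libraries labelled vector and ACLY (-0.47 ± 0.0607, adjusted p = 1.5e-07), and 143 ± 3.02 and 146 ± 4.55 in HN6 (adjusted p = 0.71). In Cal27 it was 115 ± 3.26 and 131 ± 2.13 CPM (0.19 ± 0.0599, adjusted p = 0.00567), a call lost by library-size (0.11, adjusted p = 0.107) and upper-quartile scaling (0.04, adjusted p = 0.544).

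The 2 small heat shock genes tested went against most members in HN6 with the plasmid. HSPB1, also known as HSP27, read 294, 375 and 390.4 CPM with vector and 584, 629 and 632 with ACLY, without overlap (log2 0.80 ± 0.0788, adjusted p = 3.49e-08). HSPB8, the partner of BAG3, read 19, 20 and 18.7 CPM with vector and 30.9, 28.4 and 29.9 with ACLY (0.63 ± 0.0763, adjusted p = 1.31e-08). In the HN4 libraries labelled ACLY HSPB1 was 417 ± 14.8 CPM against 545 ± 32.4 (-0.39 ± 0.0785, adjusted p = 0.000554); with all 36 libraries in 1 fit this call was lost (adjusted p = 0.172). In Cal27 it was 380.3 ± 24.9 CPM with vector and 434 ± 20.8 with ACLY (0.19 ± 0.0785, adjusted p = 0.0415); this call was lost by library-size and upper-quartile scaling (0.10 and 0.04) and without the first or second vector library or the second or the third ACLY library, at adjusted p = 0.0647 to 0.15.

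With IL-8 HSPB1 passed the test in no line; fitted on the 6 libraries of a line it passed in HN4 (adjusted p = 3.39e-05) and HN6 (0.000396). It was 454 ± 27.1 and 528 ± 20.9 CPM in HN4 (0.22 ± 0.257, adjusted p = 0.641) and 367 ± 36.3 and 449 ± 9.05 in HN6 (0.29 ± 0.257, adjusted p = 0.496). In Cal27 the untreated libraries read 427, 309.5 and 315 CPM and the treated ones 354, 336 and 926 (0.62 ± 0.258, adjusted p = 0.0648; -0.02 without the third treated library). CRYAB had 47 reads over the 3 untreated Cal27 libraries and 20 with IL-8 (adjusted p = 0.0986), and 42 with vector and 6 with ACLY. HN4 had 5 reads untreated and 0 with IL-8 (adjusted p = 0.163), and HN6 0 and 2 (adjusted p = 0.375); both groups were at or under 3 counts a library, so no fold is given. CRYAB passed the filter on low counts only through the untreated Cal27 libraries, the group where it is highest. Its calls between untreated Cal27 and the other lines, counted among the members above, are therefore no support for a difference. Of its exon bases, 20.6% overlap HSPB2 and its readthrough gene.

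The 3 mitochondrial chaperones were all called in each treatment comparison but HN6 with IL-8, where HSPD1 fell and the other two were not called. HSPD1, the HSP60 of the mitochondrial matrix, read 865, 843 and 794 CPM in untreated HN4 and 1098, 1158 and 1162 with IL-8 (log2 0.45 ± 0.069, adjusted p = 0.000374). It fell in HN6 with IL-8 from 1049 ± 35.5 to 819.7 ± 23.1 CPM (-0.36 ± 0.069, adjusted p = 0.00189) and rose in Cal27 from 919.7 ± 39.2 to 1153 ± 95.2 (0.33 ± 0.0689, adjusted p = 0.00132). With the plasmid HSPD1 read 1087, 988 and 952 CPM in HN6 with vector and 452, 456 and 449 with ACLY, one of the 3 largest falls of that comparison (-1.16 ± 0.052, adjusted p = 2.29e-19). In Cal27 it rose from 869 ± 44.6 to 1310 ± 19 CPM (0.59 ± 0.0513, adjusted p = 3.61e-12), and the HN4 libraries labelled ACLY had 848 ± 62.3 against 1216 ± 17.4 (-0.52 ± 0.0513, adjusted p = 5.03e-10).

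HSPE1, the HSP10 lid of HSP60, shares its start region with HSPD1 and 23.9% of its exon bases with other annotated genes. It rose with IL-8 in HN4 from 72.9 ± 1.64 to 100.3 ± 4.44 CPM (log2 0.46 ± 0.0917, adjusted p = 0.00285) and was 66.3 ± 8.37 and 62.8 ± 1.49 in HN6 (-0.08 ± 0.0922, adjusted p = 0.624). In Cal27 it was 94.6 ± 9.59 and 116 ± 7.55 CPM (0.30 ± 0.091, adjusted p = 0.0155), a call lost without the second untreated library (adjusted p = 0.0879) and by upper-quartile scaling (0.0599). With the plasmid HSPE1 fell in HN6 from 71.5 ± 7.91 to 45.6 ± 3.73 CPM (-0.65 ± 0.0877, adjusted p = 6.67e-07) and rose in Cal27 from 86.6 ± 5.95 to 126 ± 7.14 (0.54 ± 0.0825, adjusted p = 3.12e-06). It was 109 ± 9.62 and 64.4 ± 6.73 CPM in the HN4 libraries labelled vector and ACLY (-0.76 ± 0.0847, adjusted p = 7.66e-08). The third mitochondrial member, the HSP70 of the matrix HSPA9, was called in the same direction as HSPD1 in the other 5 treatment comparisons. Between untreated HN6 and HN4 they differed in direction: HSPD1 was higher in HN6 (0.33, adjusted p = 0.000375) and HSPA9 lower (-0.24, adjusted p = 0.00175). In untreated Cal27 against HN4 all 3 mitochondrial chaperones lay above 0 (0.14 to 0.38).

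In HN4 with IL-8 the log2 differences of the 7 TRiC subunits ran from 0.24 to 0.42 and 4 rose (6.89% of all genes tested). In HN6 they ran from -0.27 to -0.02 and 2 fell (7.81%). In Cal27 they ran from 0.04 to 0.37 and 2 rose, a count near the share over all genes (22.7%). All 7 were lower in the HN4 libraries labelled ACLY (-0.53 to -0.20, 19.1% of all genes) and in HN6 with the plasmid (-0.91 to -0.48, 24.9%). In Cal27 with the plasmid 6 rose (34.2%), and the differences of all 7 ran from 0.11 to 0.49. CCT2 read 264, 256 and 246 CPM in untreated HN4 and 326, 351 and 347 with IL-8 (0.42 ± 0.0717, adjusted p = 0.000885). It went from 539.5 ± 15.3 to 446 ± 13.8 CPM in HN6 (-0.27 ± 0.0714, adjusted p = 0.0144, with adjusted p = 0.0582 to 0.0694 without the second untreated or the first or second treated library). In Cal27 it rose with IL-8 from 329 ± 9.96 to 425 ± 44.8 (0.37 ± 0.0716, adjusted p = 0.000644). With the plasmid CCT2 fell in HN6 from 540.3 ± 23.4 to 316 ± 1.32 CPM (-0.77 ± 0.0471, adjusted p = 7.51e-16) and rose in Cal27 from 301 ± 8.67 to 422 ± 5.62 (0.49 ± 0.047, adjusted p = 4.76e-11). The HN4 libraries labelled vector and ACLY had 363 ± 10.8 and 257 ± 13.9 CPM (-0.50 ± 0.0473, adjusted p = 2.01e-10).

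Because the treated Cal27 libraries read genes of HN4, each treated Cal27 mean was set beside its Cal27 control and the 4 HN4 group means. Of the 24 members that rose with IL-8, 15 lay above the control and every HN4 group and 9 lay within that span. The third Cal27 library with IL-8 is in these means. In the first and second libraries HSP90AA1, among the 15, read 2040 and 2115 CPM, under the highest HN4 mean of 2152. HSPA9, also among them, read 574 and 597 there, under the highest HN4 mean of 602. Of the 32 that rose with the plasmid, 24 lay above and 8 within. The 2 members that fell in each comparison, HSPA2 and DNAJB4, lay within it. HSPA1A reached 287 CPM with IL-8 and 294 with the plasmid where the HN4 groups held 19.4 to 53.7, and HSPH1, within the span, reached 411 and 495 where they held 238 to 540. The HN4 means come from 2 experiments that were scaled apart, and the same counts over all called genes were not made. The part of the HN4-restricted reads in these differences was not tested.

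**Figure D5:**
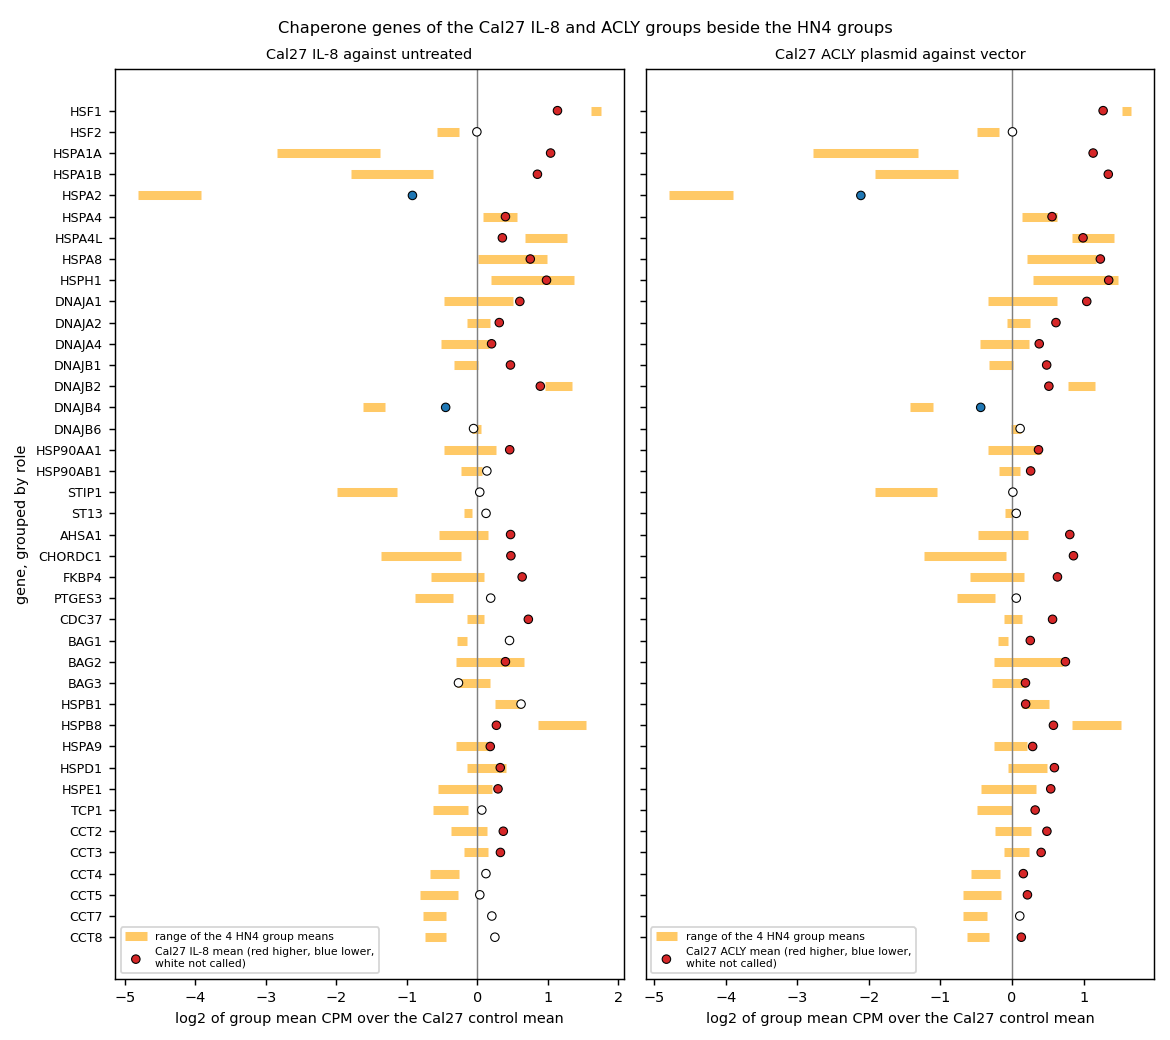
Means of the Cal27 groups with IL-8 (left) and ACLY (right) as the log2 of the group mean CPM over the Cal27 control mean (horizontal axes), for 40 members (rows; CRYAB left out). Points are coloured by the test (red higher, blue lower, white not called) and bars span the 4 HN4 group means; with IL-8 15 of 24 red points, and with ACLY 24 of 32, lie above both the control and the bar.

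The 7 genes with 3 units of the motif were set beside the 30 other members with a window, as a description. In HN4 with IL-8, 6 of 7 and 19 of 30 rose (6.89% of all genes tested), with median log2 differences of 0.54 and 0.36. In HN6 with IL-8, 5 of 7 and 9 of 30 fell (7.81% of all genes), with medians of -0.36 and -0.13. In Cal27 with IL-8, 5 of 7 and 17 of 30 rose (22.7%) and 0 and 2 fell (16.7%), with medians of 0.46 and 0.30. With the plasmid, 6 of 7 and 23 of 30 fell in HN6 (24.9%) and 0 and 3 rose (26.8%), with medians of -0.96 and -0.65. In Cal27, 6 of 7 and 24 of 30 rose (34.2%) and 0 and 2 fell (29.0%), with medians of 0.59 and 0.40. The HN4 libraries labelled ACLY had 6 of 7 and 26 of 30 lower (19.1%) and 0 and 1 higher (18.9%). The medians there were -0.74 and -0.44. For untreated HN6 against HN4 the medians were 0.80 and 0.47, with 7 and 16 higher (32.4%) and 0 and 4 lower (34.7%). For Cal27 against HN6 they were -0.45 and -0.17, with 1 and 9 higher (35.3%) and 6 and 14 lower (33.1%). For Cal27 against HN4 the genes with 3 units had the smaller median, at 0.18 and 0.32. There 4 and 19 were higher (32.2%) and 1 and 4 lower (31.4%). HSPH1 and HSPA1A, among the largest movers, have no match of 3 units in their windows. DNAJB6, which has such a match, passed the test in none of the 6 treatment comparisons and was called higher in untreated HN6 than in HN4.

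A list of 51 other chaperone genes, mainly further cochaperones of HSP90 and HSP70, HSP40 genes and prefoldin or TRiC subunits, with further small heat shock, HSP70, mitochondrial, BAG and factor genes, had 44 members with enough reads. With IL-8, 9 rose and 1 fell in HN4, 2 and 10 in HN6, and 17 and 3 in Cal27, beside 26 and 0, 0 and 15, and 24 and 2 of the 41 members. Over all genes these shares were 6.89% and 7.09%, 7.61% and 7.81%, and 22.7% and 16.7%. With the plasmid 6 were higher and 18 lower in the HN4 libraries labelled ACLY, 7 and 24 in HN6, and 25 and 5 in Cal27, where all genes gave 18.9% and 19.1%, 26.8% and 24.9%, and 34.2% and 29.0%. CCT6A, a TRiC subunit outside the 41, moved as the other subunits did: 0.35 ± 0.0571, -0.18 ± 0.0571 and 0.25 ± 0.057 with IL-8 in HN4, HN6 and Cal27 (adjusted p = 0.000682, 0.04 and 0.00216). TRAP1, the HSP90 of mitochondria, passed the test in no line with IL-8 (adjusted p = 0.0947, 0.574 and 0.222) and fell in HN6 with the plasmid from 73.3 ± 3.11 to 43.3 ± 1.94 CPM (-0.76 ± 0.0543, adjusted p = 4.96e-14). FKBP5, a glucocorticoid-induced HSP90 cochaperone, was at 0.110 ± 0.00725 CPM in untreated HN4, under the level that 3 reads give, and at 37.3 ± 3.02 and 57.7 ± 4.31 in HN6 and Cal27. HSPA6, an HSP70 that is silent without strong stress, had 2 reads over the 3 untreated HN4 libraries, 3 in HN6 and 54 in Cal27.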

How the data were processed

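The deposited values are raw counts of reads per gene, whole numbers with no normalization; per the submitters' processing notes the tools named for them are featureCounts 1.5.0-p3, HISAT2 2.0.5, CASAVA and DESeq2, with the build hg38. The annotation release, the strand setting and the handling of reads that match several places are not given in the sources used here. All 58735 genes have their GENCODE 29 start and end. Each experiment (18 libraries, 6 groups) was fitted with edgeR 4.0.16 in R 4.3.3, with limma 3.58.1 loaded. Genes passed filterByExpr with the groups given (minimum count 10, minimum total 15), libraries were scaled by TMM, and the fit was robust quasi-likelihood with 1 mean per group, two-sided tests, Benjamini-Hochberg adjustment over all genes, threshold 0.05. This tested 18398 genes with IL-8 and 18556 with the plasmid. Standard errors are the log2 difference divided by the square root of F. Responses were compared among lines with both interaction terms, on 2 degrees of freedom. Levels are CPM with the TMM factors of their own experiment. The scripts' calls were tested on simulated data.

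The members, lists and tests were chosen with earlier results of these data known. All 41 members are reported by role, and so are, per comparison, the 3 largest rises and falls among called members. For 14 members levels or log2 differences are given in every treatment comparison. The exception is CRYAB, which was not tested with the plasmid. The other chaperone list left out 1 gene whose symbol stands on 2 genes. No pair of replicates had counts as close as sampling noise alone gives. Alternatives were other scalings, filters, DESeq2 1.42.0, 1 fit per comparison, 1 fit of all 36 libraries, a replicate block, summed HSPA1A and HSPA1B, a minimum fold, and leaving out each library. Leaving out the library of lowest mitochondrial share and turning the HN4 plasmid contrast were added after seeing the data.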

Additional observations from a re-analysis of the deposited data

Results flagged for a closer look

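The response of the chaperone genes differed among the 3 lines, by a test of the difference itself in edgeR, in 32 of 41 members with IL-8 and 35 of 40 with the plasmid, with HN4 as labelled; 31 members differed in both. Of all genes tested, 40.2% and 70.9% differed in the same tests, and the share that differed in both was not counted. With IL-8 the adjusted p was 2.66e-09 for HSPA8, 2.22e-08 for HSPH1, 9.16e-06 for HSPA1B, 9.59e-06 for HSPD1, 1.07e-05 for HSP90AB1, 4.95e-05 for CCT2, 0.000248 for HSPA1A, 0.00115 for HSF1, 0.00161 for HSP90AA1, 0.00607 for DNAJB1 and 0.00872 for HSPE1. HSPA8, HSPH1, HSPD1 and CCT2 were called higher in HN4 and Cal27 and lower in HN6, while HSF1 was called in Cal27 and in neither of the other lines. With the plasmid it was 2.49e-26 for HSPA8, 3.81e-26 for HSPH1, 6.3e-22 for HSPA1B, 3.74e-20 for HSPD1, 7.09e-19 for HSF1, 2.51e-18 for HSP90AB1, 8.9e-18 for CCT2, 1.6e-15 for HSP90AA1, 2.12e-14 for HSPA1A, 7.09e-13 for DNAJB1, 2.64e-10 for HSPE1, 4.19e-08 for HSPB1 and 6.17e-08 for BAG3. In HN4 this comparison runs between libraries whose ACLY reads go against their labels; with that contrast turned 36 of 40 members differed (73.1% of all genes), 31 of them also with IL-8. The Cal27 libraries read HN4-restricted genes at a median of 0.276 of their HN4 level with IL-8 and 0.506 with ACLY. The IL-8 test also holds the third Cal27 library with IL-8, which lay far from the other libraries of its group. The part of the HN4 labels, of these reads or of that library in these differences was not tested.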

How the results depend on the processing

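Of the counts of called members under the alternatives, 217 stayed within 1.5 times the reported count and 2 did not. In HN6 with IL-8, leaving out 1 library gave 9 to 12 members where 15 were called, and for Cal27 with IL-8 a fit of the 6 libraries of that comparison gave 10 in place of 26; the cause was not tested. Named differences kept direction and call in 2295 cases, gained a call in 62, lost it in 67 and changed sign in 12, none of them called. HSPB1 in Cal27 with IL-8 was -0.02 without the third treated library, in either form of that fit, and reached 0.87 without the second. HSPB1 between untreated Cal27 and HN6 was 0.05 by library-size and by upper-quartile scaling, 0.00 among genes of at least 5 CPM, and -0.23 to 0.01 without 1 library. BAG3 in HN6 with IL-8 was 0.01 by library size, 0.02 by upper quartile and 0.00 at 5 CPM, and HSPE1 there ran from -0.17 to 0.01 without 1 library, the highest without the third untreated one. Replicate numbers did not pair the samples (correlations of deviations -0.15 to 0.14); with a replicate block 26, 14 and 26 members were called with IL-8 and 34, 34 and 33 with the plasmid in HN4, HN6 and Cal27. Without the libraries of lowest mitochondrial share these counts were 33, 22, 28, 36, 34 and 36. Depth limits CRYAB, HSPA6 and, in HN4, FKBP5, and the 3 libraries of a group limit the rest.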
